A study of Homo sapiens with 19 samples.

Results

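A set of 10 genes of retinoic acid signalling was taken by name from the 20046 protein-coding genes annotated on the human genome build GRCh38/hg38 (GENCODE release 44). They are the receptors RARA, RARB, RARG, RXRA and RXRB, the retinoid-metabolising enzymes CYP26A1 and DHRS3, and the response genes TGM2, CD38 and ASB2. Peaks of 12 deposited lists were read within 10 kb either side of the transcription start site (TSS) and over the gene body. The lists come from MOLM-13, a single human acute myeloid leukaemia line, profiled by CUT&RUN, in which an antibody directs a nuclease to cut out the chromatin that carries a histone mark. Cells received Corin at 0.1 µM or the vehicle DMSO for 24 h, with 2 libraries for each of H3K27ac, H3K4me2 and H3K4me3 under each treatment. The series holds 19 libraries. The remaining 7 were not analysed here. They comprise 4 libraries of cells that received both ATRA (all-trans retinoic acid) and Corin, 1 with an antibody to LSD1 and 2 IgG controls, so no library analysed had received retinoic acid. The labels print the 0.1 µM dose for the DMSO libraries too, where its meaning is unclear.

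Retinoic acid receptors (RARs) bind DNA as partners of retinoid X receptors (RXRs), usually at direct repeats of a hexamer. Without ligand the pair recruits corepressor complexes with histone deacetylases, and with ligand it exchanges them for coactivators that acetylate histones. CYP26A1 degrades retinoic acid and DHRS3 returns retinaldehyde to retinol, and both are textbook retinoic acid targets, as is RARB itself. In myeloid leukaemia cells retinoic acid drives differentiation, with CD38, TGM2 and ASB2 among the genes it induces. Corin joins an LSD1 inhibitor to a class I histone deacetylase inhibitor and acts on the CoREST complex. H3K27ac marks active promoters and enhancers, H3K4me3 lies mostly at promoters, and H3K4me2, a substrate of LSD1, lies at both.

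Direct repeats of a receptor half-site were looked for in hg38 within the merged peak regions of the 10 genes, because they show which marked places carry the letters these receptors are known to bind. The half-sites searched were the consensus hexamer AGGTCA and its variants. The variants AGTTCA and GGTTCA are the half-sites of the RARB element, so finding that element was fixed by the letters chosen. The variant GGGTCA was searched as well. Any pair on the same strand counted, spaced by 1 base (DR1), 2 bases (DR2) or 5 bases (DR5), on both strands. Half-sites are in capitals, 5′ to 3′, on the strand named.
RARB DR5, chr3:25428210-25428226, plus strand: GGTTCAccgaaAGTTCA
CYP26A1 DR5, chr10:93073803-93073819, minus strand: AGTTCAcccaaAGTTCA
DHRS3 DR5 in an intron, chr1:12595982-12595998, minus strand: GGTTCAgccacAGGTCA
DHRS3 DR5 in the same gene, chr1:12604603-12604619, minus strand: GGGTCAtggagAGGTCA
TGM2 DR1 upstream of the gene, chr20:38169098-38169110, plus strand: GGTTCAgAGGTCA

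The RARB repeat had its centre at -45 bp from the canonical TSS and the CYP26A1 repeat at -82 bp. Both lay in H3K4me2 regions present in all 4 libraries of that mark. The DHRS3 repeats lay 22220 and 13599 bp into the gene, and the TGM2 repeat at -3834 bp, upstream of the gene, within an H3K4me2 region that had a peak in both Corin and neither DMSO library. Single peaks did not always reach the repeat. The RARB and CYP26A1 repeats each lay under the H3K4me2 peak of both Corin libraries and of DMSO library 2, with DMSO library 1 stopping short of both. The DHRS3 repeat at chr1:12595982-12595998 lay under a peak in all 4 libraries and the one at chr1:12604603-12604619 in Corin library 2 alone. The TGM2 repeat lay under the H3K4me2 peak of Corin library 1 and the H3K27ac peak of Corin library 2. No DR2 was found in a region of the 10 genes. In the central 300 bases of all merged regions a DR2 was in 1.06% for H3K27ac, 0.768% for H3K4me2 and 0.207% for H3K4me3. In the RefSeq promoter table (GRCh38, 300-base windows from 250 before to 50 after a start) 9 of the 10 genes were matched with 20 windows, and 2 of these held a repeat, the RARB and CYP26A1 ones. TGM2 had no entry. Over all 35116 of these windows, a DR5 was in 31 (0.0883%), a DR1 in 46 (0.131%) and a DR2 in 14 (0.0399%). Among H3K4me2 regions of about the same width (within 10%), a DR5 was found in 15 of 3552 (0.422%) for RARB, 18 of 3609 (0.499%) for CYP26A1, and 17 of 3326 (0.511%) and 13 of 3114 (0.417%) for the DHRS3 pair. A DR1 was found in 19 of 3632 (0.523%) for TGM2. A match describes letters only and does not show that a receptor is bound.

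Longer stretches are printed for a pair of these sites and for the 1 place of the set that had new peaks of both H3K27ac and H3K4me2 after Corin. All are on the plus strand of hg38 and touch no annotated exon. The repeat is in capitals, and in DHRS3 it reads as its reverse complement, since it lies on the minus strand. The RXRA stretch held none of the repeats searched.
TGM2 upstream region, chr20:38168954-38169253: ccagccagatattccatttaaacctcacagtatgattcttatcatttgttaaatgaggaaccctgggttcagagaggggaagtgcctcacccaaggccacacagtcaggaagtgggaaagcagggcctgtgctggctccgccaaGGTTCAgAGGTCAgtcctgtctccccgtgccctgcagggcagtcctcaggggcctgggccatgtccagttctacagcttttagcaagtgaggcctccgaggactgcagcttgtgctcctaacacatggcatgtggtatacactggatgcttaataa
DHRS3 intron, chr1:12604461-12604760: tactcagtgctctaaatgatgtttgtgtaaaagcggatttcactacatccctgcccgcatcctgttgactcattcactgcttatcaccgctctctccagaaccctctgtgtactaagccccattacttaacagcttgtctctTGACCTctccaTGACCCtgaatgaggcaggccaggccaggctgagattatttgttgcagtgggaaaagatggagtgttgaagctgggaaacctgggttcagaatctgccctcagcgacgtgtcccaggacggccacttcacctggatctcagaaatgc
RXRA intron, chr9:134409729-134410028: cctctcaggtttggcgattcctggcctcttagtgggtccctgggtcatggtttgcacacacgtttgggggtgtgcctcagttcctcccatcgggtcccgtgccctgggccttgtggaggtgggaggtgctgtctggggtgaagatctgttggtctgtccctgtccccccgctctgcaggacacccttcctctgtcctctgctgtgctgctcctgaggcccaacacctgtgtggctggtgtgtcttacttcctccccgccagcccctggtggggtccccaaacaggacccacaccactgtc

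The lists differed in size between treatments, most for H3K27ac, with 34424 and 30029 peaks under Corin, against 17599 and 19995 under DMSO. H3K4me2 lists held 41152 and 40042 peaks against 30896 and 32299, and H3K4me3 lists 11757 and 11883 against 11104 and 11343. Values of single genes stand beside that difference, and its part in them was not tested beyond the matched number of peaks given where it mattered. The reads behind each list were not given beyond a labelled minimum of 5000000, so no detection limit was computed. The labelled cell type was checked by H3K4me3 peaks within 1 kb of a TSS. Of 9 myeloid markers 7 (SPI1, CD33, CEBPA, LYZ, FLT3, HOXA9 and MEIS1) had one in all 4 libraries and MPO in none, while the 4 B cell, 4 T cell, 3 erythroid, 3 epithelial and 2 hepatocyte markers had none in any library.

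The comparison of Corin with DMSO asked where the 3 marks lie at these genes after inhibition of the CoREST complex. The quantity throughout is the length under peaks in base pairs (bp), in a library, within 10 kb of the TSS of the Ensembl canonical transcript or over the gene from its start to its end. A difference is Corin minus DMSO, and SE is its standard error in limma, fitted over all genes with a peak in at least 1 of the mark's 4 libraries. A gene was called at a Benjamini-Hochberg adjusted p under 0.05. The labels do not say that the libraries came from separate cultures, so p-values measure the spread between these libraries, which may be technical. With 2 libraries against 2 the two-sided exact permutation test has 6 arrangements, and its smallest possible p, reached by 2 of them, is far above 0.05.

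None of the 10 genes was called in any mark, either within 10 kb of the TSS or over the gene. Over all genes limma called 0% for H3K27ac, 0.14% (20 of 14258, all higher) for H3K4me2 and 0% for H3K4me3 within 10 kb, and 0% over the gene in each mark. Without adjustment, p was under 0.05 for 1 of the set in each mark within 10 kb, and for 4 in H3K27ac, 4 in H3K4me2 and 1 in H3K4me3 over the gene. Over all genes with a peak the shares under 0.05, in the order H3K27ac, H3K4me2 and H3K4me3, were 22.9%, 14.1% and 6.81% within 10 kb and 22.7%, 16.6% and 7.54% over the gene. With the replicate number as a block, limma called RXRA in H3K27ac and TGM2 in H3K4me2 within 10 kb. Over the gene it called RARG, RXRA and ASB2 in H3K27ac, and all these were higher after Corin. For TGM2 and RARG both DMSO libraries were at 0 in these calls, so their direction was fixed. The shares of all genes called higher in that fit were 13.7% for H3K27ac and 4.57% for H3K4me2 within 10 kb, and 10.7% for H3K27ac over the gene, and 0.014% were called lower in H3K4me2 within 10 kb.

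Where the treatments did not overlap at a member, Corin lay above, though in H3K27ac within 10 kb most members with a peak overlapped. Within 10 kb of the TSS both Corin libraries lay above both DMSO libraries in H3K4me2 for 7 of the 10 genes (39.6% of all genes with a peak), in H3K4me3 for 5 of the 5 with a peak (25.8% of all), and in H3K27ac for 1 of the 5 with a peak (54.5% of all). No member lay below in any mark, where the shares of all genes were 0.59% for H3K27ac, 3.91% for H3K4me2 and 8.38% for H3K4me3. Over the gene the counts above were 9 of 10 for H3K4me2 (39.7% of all), 5 of 7 for H3K27ac (53.4% of all) and 3 of 6 for H3K4me3 (23.5% of all), again with none below (0.952% of all for H3K27ac, 4.76% for H3K4me2 and 9.09% for H3K4me3). Counted within pairs of the same library number, Corin was above in both pairs for 8 members in H3K4me2 within 10 kb (49.9% of all), and over the gene for 10 in H3K4me2 (50.4% of all) and 4 in H3K4me3 (34.5% of all). The H3K4me2 count within 2000 bp of the TSS was 3 (27.9% of all), and the H3K27ac count over the gene was 3 at the matched number of peaks, as many per list as the shortest list holds (33.7% of all). Without Corin library 2 the H3K27ac count above within 10 kb was 4 (80.9% of all). It was 2 without Corin library 1 (69.6% of all), when 1 member lay below (6.39% of all), and 2 without DMSO library 2 (70.7% of all). Without DMSO library 1 there were 2 members below in H3K4me2 within 10 kb (21.4% of all), and over the gene 1 in H3K27ac (8.16% of all) and 1 in H3K4me3 (26.1% of all). The H3K4me3 count above over the gene was 5 without Corin library 2 (46.1% of all) or DMSO library 2 (45.3% of all). The median difference of the set within 10 kb was 400 bp in H3K27ac, 243 bp in H3K4me2 and 348 bp in H3K4me3, beside 445, 230 and 63.5 bp over all genes with a peak. Over the gene it was 950.5, 909 and 182 bp, beside 373.5, 180 and 35 bp. Length under peaks over the gene can rise with gene length, from 4.41 to 910 kb in the set, and was not matched for it. Single libraries moved some of these medians. Within 10 kb the H3K27ac median of the set was 206.5 bp without Corin library 1 (350 bp over all genes) and the H3K4me2 median 406.75 bp without DMSO library 2 (339.5 bp over all genes). Over the gene the H3K4me3 median of the set was 106.25 bp without Corin library 1, 69.5 bp without DMSO library 1 and 282.5 bp without DMSO library 2, beside 17, 20 and 50.5 bp over all genes. TGM2 and CD38 had H3K27ac within 10 kb only in Corin libraries, as RARG and CD38 did over the gene and TGM2 did for H3K4me2 within 10 kb. These genes entered the fits through the Corin libraries alone, so their direction was fixed by that.

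**Figure D1:**
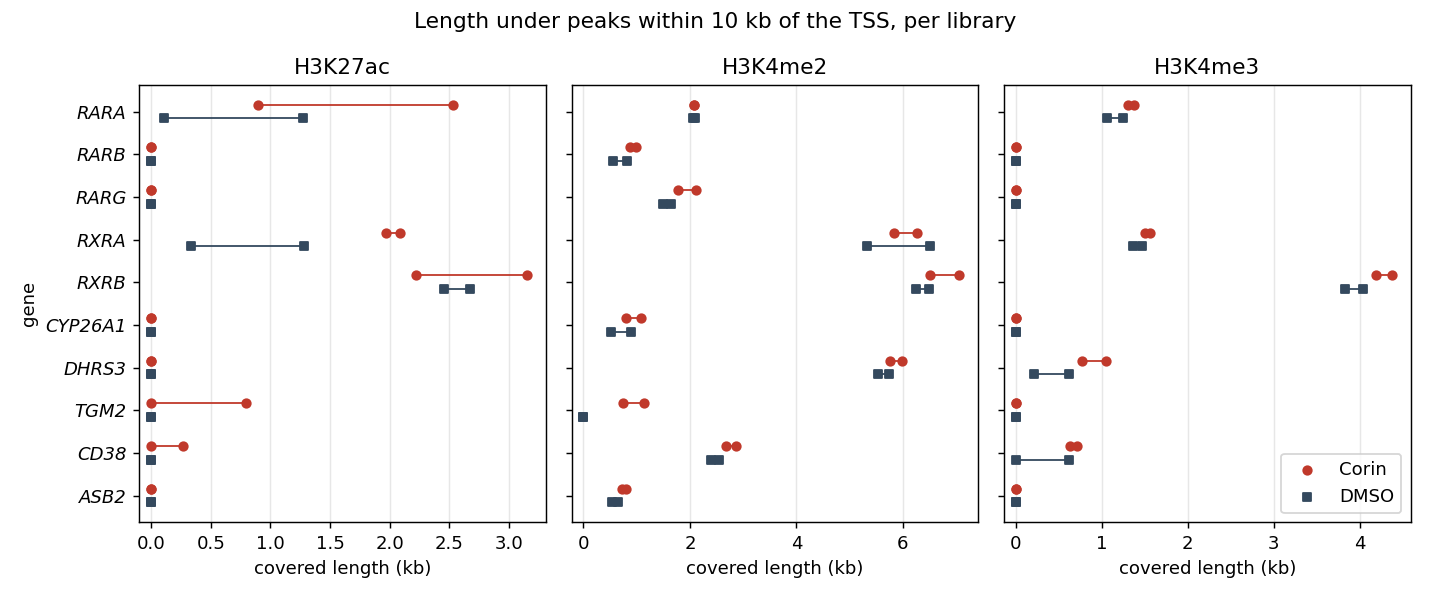
Length under peaks (kb) within 10 kb of the canonical TSS of each of the 10 genes, per library, for H3K27ac, H3K4me2 and H3K4me3. Red circles are Corin and dark squares DMSO libraries, and each line joins the 2 libraries of a treatment. RARB, RARG, CYP26A1, DHRS3 and ASB2 were at 0 in all 4 H3K27ac libraries.

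RARA, on the plus strand of chromosome 17 (chr17:40309180-40357643, ENSG00000131759.18), encodes the main RAR of myeloid cells, which is fused to PML in acute promyelocytic leukaemia. Over the gene its H3K27ac covered 12067 and 9920 bp after Corin, against 3559 and 5471 bp after DMSO. Both Corin libraries were above both DMSO libraries, 2.43-fold by the means (10993.5 ± 1518 against 4515 ± 1352 bp, SD, n = 2 each). The difference was 6478.5 bp (SE 1675, limma adjusted p = 0.159). With only the 17599 top-scoring H3K27ac peaks of each list, as many as the shortest list holds, it was 2988.5 bp. H3K4me2 covered 14131 and 13652 bp after Corin, against 12223 and 10484 bp after DMSO, and H3K4me3 3446 and 3274 bp against 2437 and 1851 bp. The groups were apart in these marks as well, by 2538 bp for H3K4me2 (SE 1039, limma adjusted p = 0.359, and 1668.5 bp without DMSO library 2) and 1216 bp for H3K4me3 (SE 243, limma adjusted p = 0.549).

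These marks were not at the canonical start of RARA. Within 1 kb of that start no library had an H3K4me2 or H3K4me3 peak, and 1 of the 4 H3K27ac libraries had a peak. All 3 marks were present in all 4 libraries around the start of the transcripts RARA-204 and RARA-206, at positions 40318281 and 40318285. From there an H3K4me2 region ran over 12069 bp into the gene (chr17:40317094-40329162), covered for 11986 and 11766 bp after Corin, against 10405 and 9568 bp after DMSO. The H3K4me3 region over the same start (chr17:40317801-40320360) was covered for 2482 and 2372 bp after Corin, against 1712 and 1617 bp after DMSO. H3K27ac broke into 18 regions over the gene and its surroundings, of which 5 were seen in all 4 libraries. The widest (chr17:40320823-40325050, intronic) was covered for 3966 and 3937 bp after Corin, against 1640 and 2802 bp after DMSO. The window of 10 kb around the canonical start ends shortly after the internal start. Within it H3K4me2 hardly differed, at 2072 and 2076 bp after Corin, against 2063 and 2087 bp after DMSO. H3K27ac in that window was 2531 and 898 bp after Corin, against 110 and 1273 bp after DMSO. Those groups overlapped, and the difference of 1023 bp (SE 633, limma adjusted p = 0.352) fell to 206.5 bp without Corin library 1 and turned to -387 bp at the matched number of peaks and to -253 bp with a score of at least 100.

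**Figure D2:**
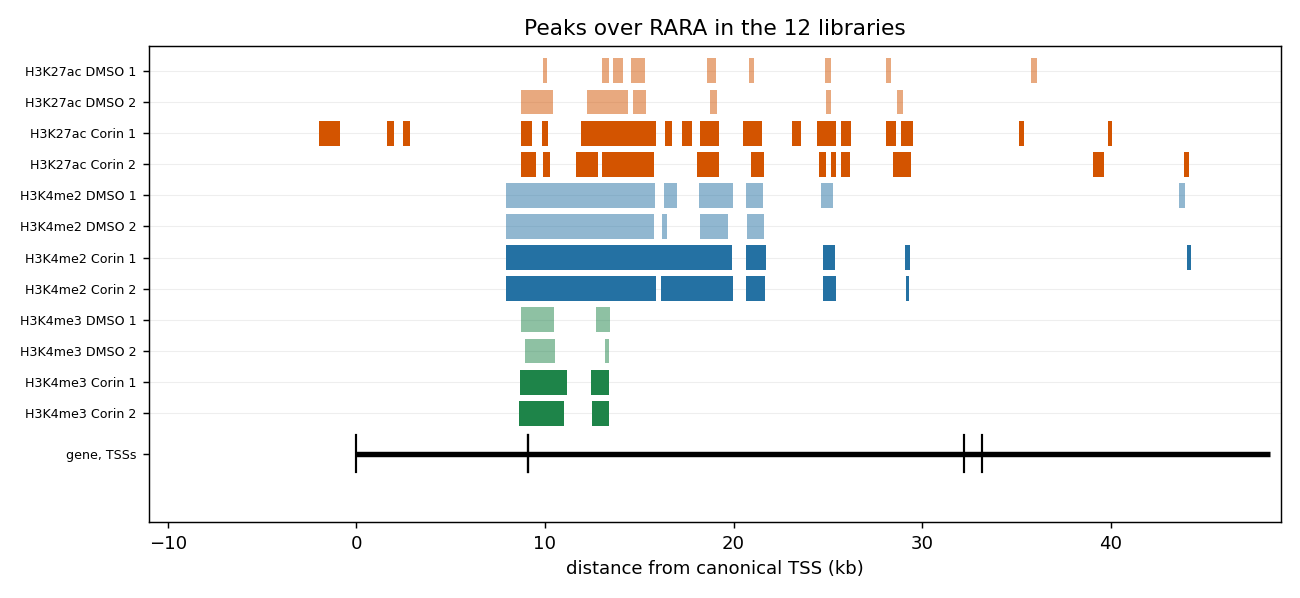
Peaks over RARA in each of the 12 libraries against distance from the canonical TSS (kb), with dark bars for Corin and pale bars for DMSO. The bottom track shows the gene and its annotated start sites, and the H3K4me2 and H3K4me3 peaks begin near the internal start.

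RARB lies on chromosome 3 (chr3:24687887-25597932, plus strand, ENSG00000077092.20), a gene of 910 kb with 11 annotated starts. It encodes the receptor whose own promoter holds the best known retinoic acid response element. Its peaks in all 12 lists formed a single region, of H3K4me2, at the canonical promoter (chr3:25427589-25428579), over the DR5 printed for it. The covered length was 991 and 880 bp after Corin, against 550 and 828 bp after DMSO, so the groups were apart, by 246.5 bp (SE 192, limma adjusted p = 0.662). Without DMSO library 1 that difference was 107.5 bp and without DMSO library 2 it was 385.5 bp. H3K27ac and H3K4me3 were listed at 0 in each of the 8 libraries of those marks, over the promoter and over the whole gene. The start at the gene's 5′ end, 740376 bp upstream of the canonical TSS, had no peak of any mark.

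RARG, on the minus strand of chromosome 12 (chr12:53210567-53232980, ENSG00000172819.17), encodes the third retinoic acid receptor. Its canonical promoter carried H3K4me2 in all 4 libraries and no other mark, while the internal starts of RARG-201 and RARG-204 carried H3K4me2 and H3K4me3 in all 4. H3K4me2 over the gene covered 6858 and 6685 bp after Corin, against 5674 and 5867 bp after DMSO. The groups were apart by 1001 bp, with a small spread within each (SDs of 122 and 136 bp, SE 349, limma adjusted p = 0.293). H3K27ac over the gene was 1214 and 687 bp after Corin and 0 in both DMSO libraries, a difference of 950.5 bp (SE 245, limma adjusted p = 0.159, and 0.0267 with the replicate block). It was 607 bp at the matched number of peaks, and its direction was fixed, as neither DMSO library had a peak. H3K4me3 covered 2492 and 2120 bp after Corin, against 1915 and 2227 bp after DMSO, and those groups overlapped.

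RXRA (chr9:134317098-134440585, plus strand, ENSG00000186350.12) encodes a shared dimer partner of RARs and other nuclear receptors. Its H3K27ac within 10 kb of the TSS covered 2083 and 1966 bp after Corin, against 336 and 1279 bp after DMSO. This was the 1 member with the H3K27ac groups apart there, 2.51-fold by the means (2024.5 ± 82.7 against 807.5 ± 667 bp, SD, n = 2 each). The difference was 1217 bp (SE 427, limma adjusted p = 0.173, and 0.0413 with the replicate block), and 720.5 bp within 2000 bp of the TSS. Without DMSO library 1 it was 745.5 bp, 1.58-fold, and without DMSO library 2 it was 1688.5 bp, 6.03-fold. Over the gene H3K27ac was 4458 and 6427 bp after Corin, against 1439 and 3089 bp after DMSO, by 3178.5 bp (SE 991, limma adjusted p = 0.175, and 0.0335 with the replicate block). At the matched number of peaks that difference was 1821.5 bp. H3K4me2 over the gene was 11790 and 11480 bp after Corin, against 7919 and 9970 bp after DMSO, a difference of 2690.5 bp (SE 967, limma adjusted p = 0.304), or 1665 bp without DMSO library 1. Both marks were thus apart over the gene without reaching the threshold in the unblocked fit. Within 10 kb H3K4me2 overlapped between treatments (6267 and 5841 against 5328 and 6505 bp), and the H3K4me2 regions farther into the gene held the difference. H3K4me3 within 10 kb was 1509 and 1559 bp after Corin, against 1360 and 1474 bp after DMSO. It was apart by 117 bp (SE 113, limma adjusted p = 0.906), a difference that was 60.0 bp without DMSO library 1 and turned to -132 bp around the gene's 5′ end in place of the canonical TSS.

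RXRB (chr6:33193588-33200665, minus strand, ENSG00000204231.11) encodes another RXR and shares its promoter region with the zinc transporter gene SLC39A7. H3K27ac did not part the treatments there, with 3150 and 2222 bp after Corin, against 2453 and 2671 bp after DMSO within 10 kb and a difference of 124 bp (SE 527, limma adjusted p = 0.885). That difference turned to -340 bp without Corin library 1 and was 588 bp without Corin library 2. H3K4me3 covered 4196 and 4373 bp against 3834 and 4039 bp and H3K4me2 7059 and 6514 bp against 6250 and 6490 bp. Both were apart, by 348 bp (SE 196, limma adjusted p = 0.860, and 159 bp within 2000 bp of the TSS) and 416.5 bp (SE 426, limma adjusted p = 0.754, and 144 bp without Corin library 1). The window also takes in peaks at HSD17B8 and RING1, so these values are not of RXRB alone.

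**Figure D3:**
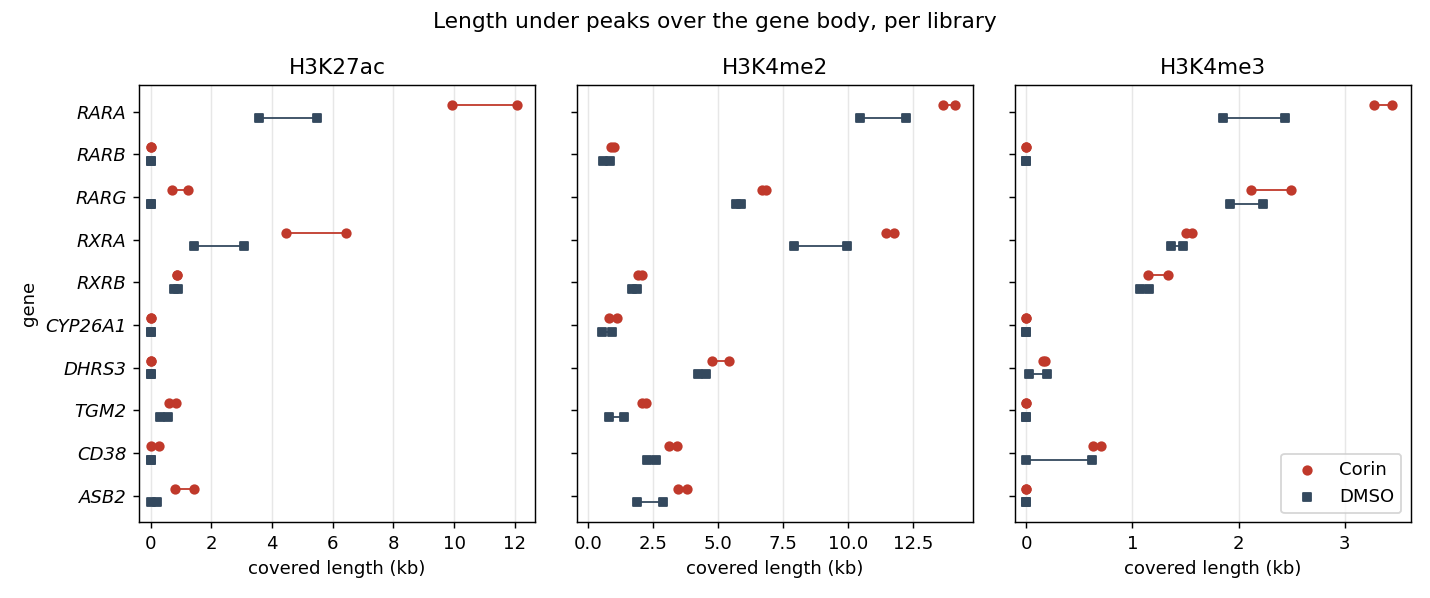
Length under peaks (kb) over the gene body of each of the 10 genes, per library and mark. Red circles are Corin and dark squares DMSO libraries. RARA and RXRA had the longest H3K27ac coverage, with both Corin libraries above both DMSO libraries.

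CYP26A1 (chr10:93073475-93077885, plus strand, ENSG00000095596.12), the enzyme that clears retinoic acid, carried the same mark as RARB. H3K4me2 alone was present, in 1 region over the promoter and the DR5 (chr10:93073502-93074637), and H3K27ac and H3K4me3 were listed at 0 in each of their 8 libraries. The H3K4me2 length was 803 and 1085 bp after Corin, against 516 and 902 bp after DMSO. Each Corin library was above the DMSO library of its number, while the groups overlapped, with a difference of 235 bp (SE 221, limma adjusted p = 0.728). It was 42.0 bp without DMSO library 1 and 428 bp without DMSO library 2. Over peaks with a score of at least 100 it was 493 bp, as the peak of DMSO library 1 (score 65) dropped out.

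DHRS3 (chr1:12567910-12618210, minus strand, ENSG00000162496.9), a retinaldehyde reductase, carried a broad H3K4me2 region over its promoter (chr1:12614936-12620915). That mark covered 5759 and 5980 bp after Corin, against 5734 and 5526 bp after DMSO within 10 kb. The groups were apart by 239.5 bp (SE 371, limma adjusted p = 0.846), or by 129 bp without Corin library 2. Within 2000 bp of the TSS the H3K4me2 peak filled the whole window in all 4 libraries, so the difference of 0 bp there was fixed. H3K4me3 covered 768 and 1046 bp after Corin, against 622 and 217 bp after DMSO. These groups were also apart, by 487.5 bp (SE 185, limma adjusted p = 0.701), or 285 bp without DMSO library 2. Over peaks with a score of at least 100 the difference was 907 bp, as both DMSO peaks (scores 67 and 83) dropped out. No H3K27ac peak was listed in any of the 4 libraries, over the promoter or the gene. The intronic H3K4me2 region around the DR5 at chr1:12604603-12604619 was covered for 356 and 656 bp after Corin and for 248 and 0 bp after DMSO, while the region around the other DR5 was present in all 4 libraries (1339 and 1477 against 1259 and 1397 bp).

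**Figure D4:**
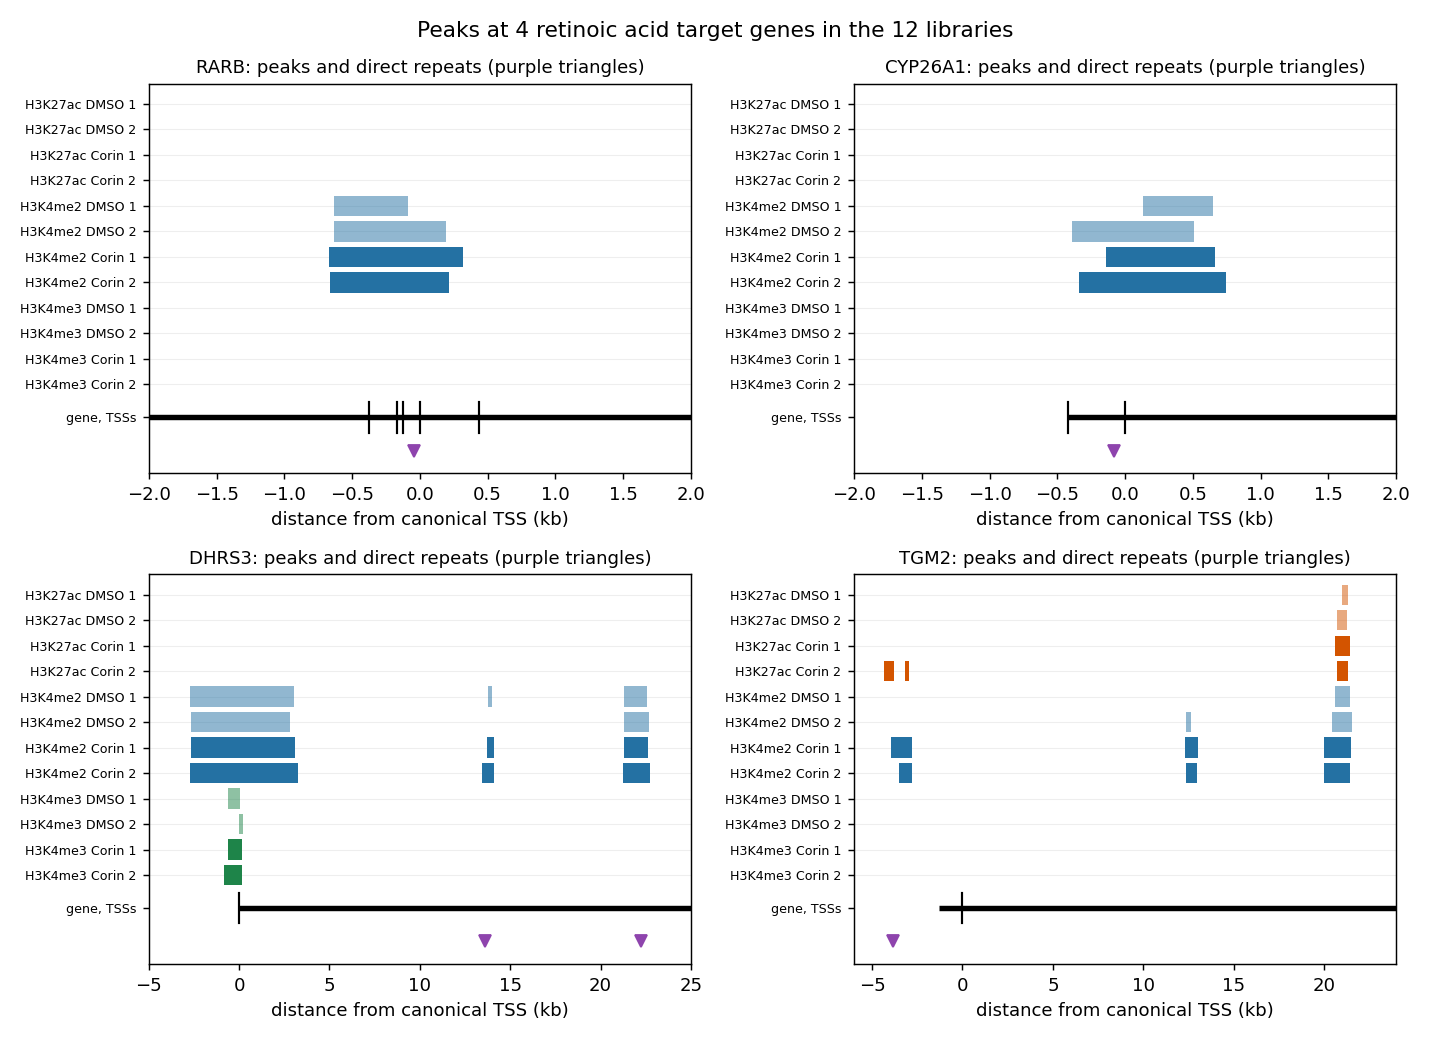
Peaks at RARB, CYP26A1, DHRS3 and TGM2 in each of the 12 libraries against distance from the canonical TSS (kb), dark for Corin and pale for DMSO. Purple triangles mark the direct repeats. RARB and CYP26A1 had H3K4me2 peaks and no others, and the TGM2 repeat lay beneath an H3K4me2 peak of Corin library 1 and an H3K27ac peak of Corin library 2.

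TGM2 (chr20:38127385-38166578, minus strand, ENSG00000198959.12) encodes tissue transglutaminase, a classic retinoic acid-induced enzyme. No peak was listed within 1 kb of its TSS in any library. H3K4me2 within 10 kb was 1136 and 746 bp after Corin and 0 in both DMSO libraries, all of it in the upstream region chr20:38168062-38169216 that holds the DR1. The difference was 941 bp (SE 193, limma adjusted p = 0.126, and 0.0186 with the replicate block), in a direction fixed by the empty DMSO libraries. H3K27ac was seen there in Corin library 2 (800 bp) and in no other. Over the gene H3K4me2 was 2202 and 2083 bp after Corin, against 780 and 1359 bp after DMSO, a further difference of 1073 bp that does not include the upstream region (SE 249, limma adjusted p = 0.188). Those groups were apart, as were those of H3K27ac over the gene (843 and 616 against 321 and 557 bp), by 290.5 bp, or 172.5 bp without DMSO library 1.

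CD38 (chr4:15778275-15853232, plus strand, ENSG00000004468.13) encodes a surface enzyme that turns over NAD and is used as a marker of retinoic acid response. Its promoter carried H3K4me2 in all 4 libraries and H3K4me3 in 3 of 4. H3K4me3 covered 629 and 708 bp after Corin, against 0 and 621 bp after DMSO, so the difference of 358 bp (SE 222, limma adjusted p = 0.872) rested on DMSO library 1, which had no peak. Without that library it was 47.5 bp, and at the matched number of peaks 43.5 bp. H3K4me2 over the gene was 3409 and 3097 bp after Corin, against 2616 and 2256 bp after DMSO. The groups were apart by 817 bp (SE 243, limma adjusted p = 0.247). Within 10 kb they were apart by 299 bp (SE 256, limma adjusted p = 0.700), and within 2000 bp by 15 bp. H3K27ac was seen in Corin library 1 only (267 bp), in an intron.

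ASB2 (chr14:93934166-93976739, minus strand, ENSG00000100628.12) encodes a substrate receptor of a ubiquitin ligase that retinoic acid induces in myeloid leukaemia cells. Its canonical promoter had no peak of any mark. H3K27ac over the gene was 1434 and 801 bp after Corin, against 0 and 221 bp after DMSO. The groups were apart by 1007 bp (SE 295, limma adjusted p = 0.167, and 0.0361 with the replicate block). At the matched number of peaks the difference was 144 bp. H3K4me2 over the gene was 3465 and 3808 bp after Corin, against 1889 and 2869 bp after DMSO, apart by 1257.5 bp (SE 413, limma adjusted p = 0.272), or 767.5 bp without DMSO library 1. Most of it lay near the internal start of ASB2-201, in the region chr14:93953803-93956058 (2010 and 2256 against 1345 and 1793 bp). No H3K4me3 peak was listed in any library.

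**Figure D5:**
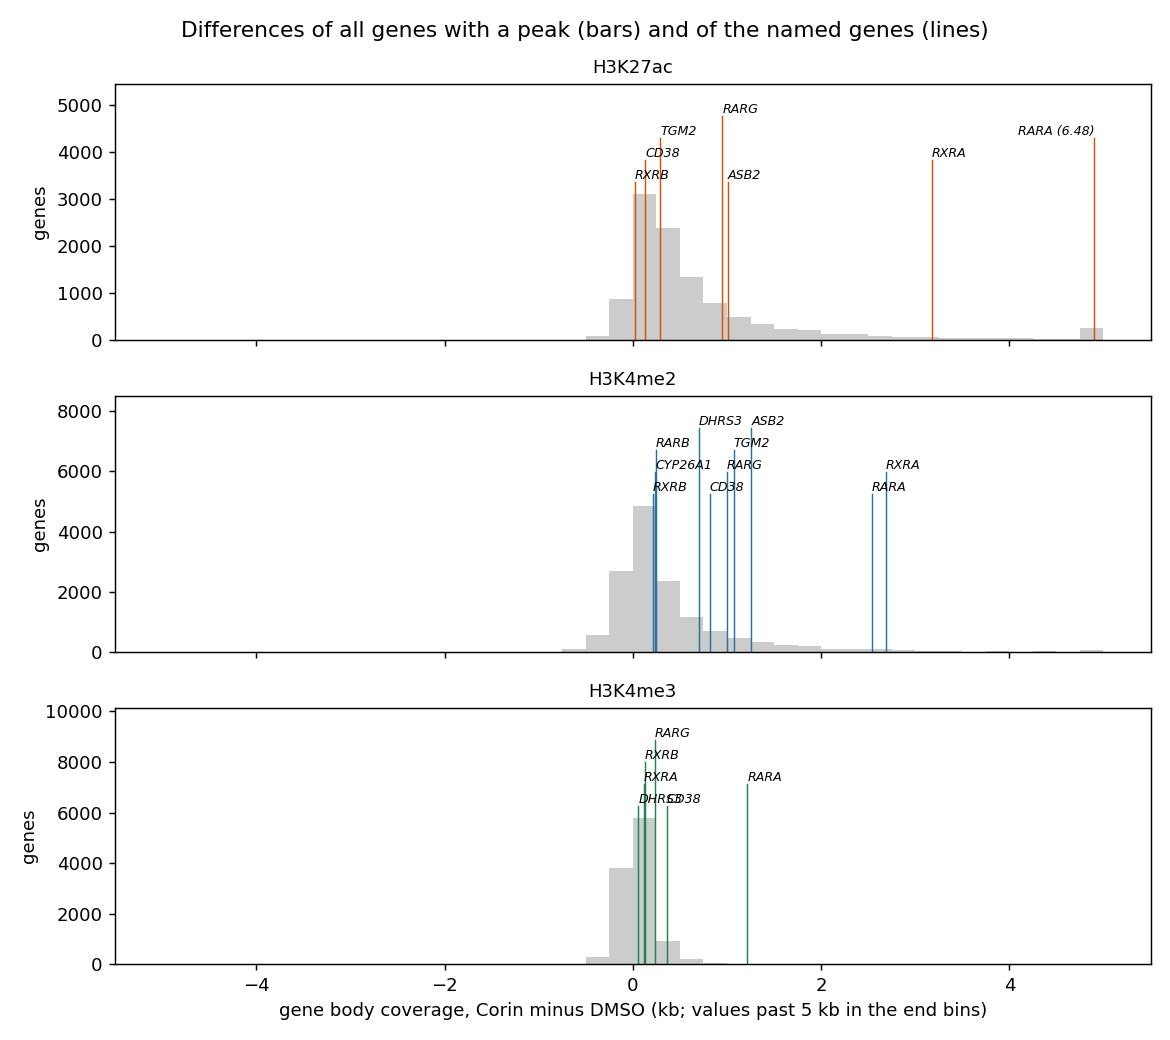
Difference of gene body coverage (Corin minus DMSO, kb) for all genes with a peak (grey bars, number of genes per bin of 250 bp) and for the members (coloured lines), in each mark. RARA lies past the plotted range for H3K27ac, at 6478.5 bp, and stands in the end bin. All members with a peak lie right of 0, as do most genes in each mark.

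Read as separate regions, the 4 lists of each mark merged to 41 H3K27ac, 35 H3K4me2 and 10 H3K4me3 regions at the 10 genes. A region is called gained where both Corin and neither DMSO library had a peak. Of the H3K27ac regions 4 were gained (9.76%, beside 11.5% of all regions), of the H3K4me2 regions 5 (14.3%, beside 9.64%), and of the H3K4me3 regions none (beside 1.5%). None was lost, where the shares over all regions were 0.18%, 0.158% and 0.29%. The gained H3K27ac regions were intronic, in RARA (chr17:40334873-40335433), RARG (chr12:53217361-53218273), RXRA (chr9:134409594-134410164) and ASB2 (chr14:93959309-93960043). The gained H3K4me2 regions lay upstream of TGM2, in 1 RARA intron (chr17:40338284-40338532) and at 3 places in RXRA introns. The RXRA places were chr9:134395788-134396755, chr9:134405625-134405946, which an exon of another annotated transcript touches, and chr9:134409385-134410173. The last of these overlaps the gained H3K27ac region of RXRA, 83.4 kb from the TSS, where H3K27ac covered 474 and 327 bp and H3K4me2 660 and 536 bp after Corin. It is the place whose sequence is printed for RXRA.

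At the promoters, taken as 1 kb either side of the canonical TSS, the set split by its marks after DMSO. RARB, RARG and CYP26A1 had H3K4me2 in both libraries and neither other mark, a state held by 1720 genes (8.58% of all). RXRB had H3K4me3 with H3K27ac (25.8% of all genes), DHRS3 had H3K4me3 without H3K27ac (12.4%), and RARA, TGM2 and ASB2 had no peak at that start (37.2%). RXRA and CD38 differed between their DMSO libraries. After Corin RARB, RARG and CYP26A1 were again marked by H3K4me2 alone (1776 genes, 8.86%). RXRA joined RXRB with both other marks in both libraries (36.5% of all genes), and CD38 joined DHRS3 without H3K27ac (6.99%).

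A further 42 genes of the retinoid system, listed by role, were read within 10 kb of their TSS. In H3K27ac 21 had a peak, with Corin above in 15 (54.5% of all genes with a peak) and below in 0, and none was called by limma. At the matched number of peaks Corin was above in 7 (35% of all). An unadjusted p under 0.05 was seen for 9 (22.9% of all), and 6 were called with the replicate block (13.7% of all). Of the 21 genes 6 had H3K27ac in Corin libraries alone. In H3K4me2 29 had a peak, with Corin above in 16 (39.6% of all) and below in 1 (3.91% of all). Limma called 2 of them, both higher (0.14% of all), and with the replicate block 6 (4.57% of all). The unadjusted p was under 0.05 for 9 (14.1% of all). No gene of the list was called in that mark at the matched number of peaks, with a score of at least 100, on the log2 scale or without the filter on coverage. In H3K4me3 21 had a peak, with Corin above in 6 (25.8% of all) and below in 3 (8.38% of all) and none called with or without the block, and 1 had an unadjusted p under 0.05 (6.81% of all). The list's median differences were 560, 446.5 and 102 bp in the order H3K27ac, H3K4me2 and H3K4me3, beside 445, 230 and 63.5 bp over all genes with a peak. The H3K27ac median of the list was 845 bp without Corin library 2 (548 bp over all genes). Its H3K4me3 median was 36.5 bp without Corin library 2 or DMSO library 1 and 172.5 bp without DMSO library 2, beside 79, 34.5 and 101.5 bp over all genes.

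Over all genes with a peak, Corin was above in 54.5% for H3K27ac, 39.6% for H3K4me2 and 25.8% for H3K4me3. By role, the counts of genes with Corin above among those with a peak were as follows. Of the response genes they were 6 of 8 in H3K27ac, 9 of 10 in H3K4me2 and 3 of 5 in H3K4me3. Of those counted as above, 3 in H3K27ac (TNFAIP2, ITGAM and ITGAX) and 1 in H3K4me2 (ITGAM) were at 0 in both DMSO libraries and entered only through Corin, so their direction was fixed. Of the coregulators, a group that here includes PML, they were 4 of 6, 3 of 9 and 0 of 8 in the same order. Genes of uptake, binding and metabolism gave 3 of 5, 3 of 7 and 3 of 5, and the other receptors 2 of 2 (1 of them with H3K27ac in Corin libraries alone), 1 of 3 and 0 of 3. Corin was below in 1 of 9 coregulators in H3K4me2 (3.91% of all genes with a peak). In H3K4me3 it was below in 2 of 8 coregulators and 1 of 5 genes of uptake, binding and metabolism (8.38% of all). In every other role and mark none lay below. Differences between roles were not tested.

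The 2 called genes were CCL2, a chemokine gene, and ITGAM, which encodes the integrin CD11b, a marker of myeloid maturation. CCL2 H3K4me2 rose from 367 and 290 bp after DMSO to 3241 and 3054 bp after Corin, by 2819 bp (SE 220, limma adjusted p = 0.0433). ITGAM H3K4me2 rose from 0 in both DMSO libraries to 3039 and 2536 bp, by 2787.5 bp (SE 246, limma adjusted p = 0.0433). ITGAM entered the fit through the Corin libraries alone, so its direction was fixed by that. Neither was called in the unblocked fit once any 1 of the 4 libraries was left out, and each was called with the replicate block (limma adjusted p = 6.86e-05 for CCL2 and 5.67e-05 for ITGAM). CEBPE, a transcription factor of granulocyte maturation, had 3030 and 2888 bp of H3K27ac after Corin against 1288 and 863 bp after DMSO, with H3K4me2 at 7302 and 5949 against 3719 and 3357 bp. Its groups were apart in both marks (limma adjusted p = 0.116 and 0.105, and 0.00765 and 0.00178 with the replicate block).

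The other named genes of that list are CSF3R, the receptor of granulocyte colony-stimulating factor, ITGAX, an integrin of myeloid cells, THBD, the thrombin receptor thrombomodulin, ICAM1, an adhesion molecule, and TNFAIP2, a retinoic acid-induced gene. None of them was called in the unblocked fit. CSF3R H3K27ac was 4367 and 4885 bp after Corin, against 617 and 3323 bp after DMSO, and THBD H3K27ac 2414 and 2938 bp against 859 and 1187 bp. Both had their groups apart, and both were called with the replicate block (limma adjusted p = 0.00841 and 0.0142). The CSF3R difference of 2656 bp was 1303 bp without DMSO library 1 and 4009 bp without DMSO library 2. H3K4me2 of neither gene was called with the block (limma adjusted p = 0.123 for CSF3R and 0.926 for THBD). ITGAX H3K4me2 was 4062 and 4348 bp against 865 and 2840 bp, and TNFAIP2 H3K4me2 5036 and 4693 bp against 3132 and 3360 bp, again apart and called with the block (limma adjusted p = 0.00402 and 0.0376). The ITGAX difference of 2352.5 bp was 1365 bp without DMSO library 1. ICAM1 stood out by H3K4me3, at 1816 and 1937 bp after Corin, against 225 and 248 bp after DMSO, a difference of 1640 bp (SE 109, limma adjusted p = 0.0937).

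Likeness was measured as the mean absolute difference of coverage within 10 kb over the 12 libraries, and the most alike gene on another chromosome was taken for each member. RARB was most like HPSE2 (16.2 bp), CYP26A1 like LPIN3 (15.2 bp), ASB2 like FKBP6 (14.8 bp) and RARG like ETV7 (19.0 bp), all with H3K4me2 alone. TGM2 was most like PIP (57.6 bp), which also had H3K4me2 in the Corin libraries and in neither DMSO library. CD38 was most like DAAM1 (101 bp), whose H3K4me3 was likewise at 0 in DMSO library 1, with 513 and 343 bp after Corin and 528 bp in DMSO library 2. In bp, not scaled to coverage, the genes with long coverage had less close matches: DHRS3 with NOL3 (187 bp), RARA with PSMG4 (192 bp), RXRB with RAB33A (210 bp) and RXRA with OSBPL5 (269 bp). Mean coverage was 4437.58 bp for RXRB and 223.5 bp for TGM2, so the order would differ relative to coverage.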

How the data were processed

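CUT&RUN libraries of MOLM-13 cells were read as 150 bp paired ends, per the labels' protocols. The submitters' processing notes name Trim Galore, Bowtie2, Picard and MACS2 and the build GRCh38/hg38. Versions, the control and the calling threshold are not given in the sources used here. Each library has its own deposited peak list, and whether other libraries entered its calling is not given in the sources used here. The score the authors deposited with each peak is a whole number of at least 50 of unstated definition. Here it serves to order and threshold the peaks of a list and for nothing else.

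From the lists, the length under merged peaks was summed per library within 10000 bp either side of the Ensembl canonical TSS and over the gene for 20046 protein-coding genes. Where no peak was listed the value is 0. Differences were tested with limma 3.58.1 (R 4.3.3, eBayes with trend) on bp per mark, over genes with a peak in at least 1 library, with Benjamini-Hochberg adjustment over all of them. The script was tested on simulated data. The canonical TSS was used because the 5′ end of RARB lies 740376 bp from it. The deviation from the group mean was compared between Corin and DMSO libraries of the same number. Its correlation was 0.293 (H3K27ac, 10673 genes), 0.314 (H3K4me2, 14258 genes) and 0.234 (H3K4me3, 11405 genes), and the libraries were taken as paired by number. What the numbers share is not stated in the labels.

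The 10 genes and the list of 42 further genes were chosen with earlier results of these data known. Every member is named. From the further list up to 8 genes are named, first those called by limma and then those with the largest difference among genes whose groups did not overlap. Alternatives were a matched number of top-scoring peaks (17599 for H3K27ac, 30896 for H3K4me2 and 11104 for H3K4me3), a score of at least 100, a log2(bp + 500) scale, no filter or a mean of at least 500 bp, the replicate block, each library left out, windows of 2000 and 5000 bp, and the gene's 5′ end. Their use on the list of 42 genes was added after seeing the data. Sequences are from hg38, and the promoter windows are from RefSeq, where 20 of 20 windows of the members equalled hg38.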

Additional observations from a re-analysis of the deposited data

How the results depend on the processing

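Of the single-gene differences recomputed under each alternative, 25 moved by more than the spread between libraries and 10 passed the threshold. A further 430 were counted as unmoved, on the log2 scale by sign alone. The replicate block and the filters on coverage leave a difference in bp unchanged by design, so those settings could not move one. The sign turned in 11, of which 1 had its groups apart (RXRA H3K4me3, -132 bp around the gene's 5′ end) and 10 had overlapping groups, in RARA, RXRA, RXRB and DHRS3. With the replicate block limma called 1 member in H3K27ac and 1 in H3K4me2 within 10 kb and 3 in H3K27ac over the gene (13.7%, 4.57% and 10.7% of all genes higher). The block also raised the further list's calls to 6 in H3K27ac and 6 in H3K4me2. Counted within both pairs, its genes with Corin above were 10 in H3K4me3 (37.3% of all genes) and below 2 in H3K4me2 (7.53%). At the matched number of peaks the members with H3K27ac above over the gene fell from 5 to 3 (33.7% of all genes) and those of the further list within 10 kb from 15 to 7 (35% of all genes). The list's H3K4me2 calls went from 2 to 0 there, and to 0 with a score of at least 100, on the log2 scale, without a filter, and within 2000 or 5000 bp. A mean of at least 500 bp gave 1 call in H3K27ac (4.8% of all genes called higher). Windows of 2000 bp left 3 members with H3K4me2 above (27.9% of all genes), and in the list 3 genes with H3K4me3 above (23.8%) and 3 with H3K4me2 below (7.28%), or 2 within 5000 bp (4.75%). With the gene's 5′ end as TSS 1 member lay below in H3K4me3 (8.28%).

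With each library left out in turn, members above ranged from 1 to 4 in H3K27ac within 10 kb (63.2% to 80.9% of all genes), and from 3 to 5 in H3K4me3 over the gene (35.9% to 46.1%). Members below ranged from 0 to 1 in H3K27ac within 10 kb (1.97% to 7.14%) and over the gene (2.61% to 8.16%), from 0 to 2 in H3K4me2 within 10 kb (7.27% to 21.4%), and from 0 to 1 in H3K4me3 over the gene (19.8% to 26.1%). Members called ranged from 0 to 1 in H3K27ac within 10 kb (0% to 12.7% of all genes higher) and from 0 to 2 over the gene (0% to 16.2%). Those calls were of RARG, TGM2 and CD38, at 0 in both DMSO libraries with 1 Corin library left, so no spread remained in the gene itself and they support nothing. In the further list, genes below ranged from 0 to 2 in H3K27ac (1.97% to 7.14% of all genes) and from 1 to 4 in H3K4me2 (7.27% to 21.4%). In H3K4me3 genes below ranged from 4 to 5 (18.5% to 26.6%) and genes above from 8 to 11 (37% to 49.7%). A treatment left with 1 library was assumed to vary like the other. The causes were not tested. The reads behind each list are not known here, so a place without a peak cannot be read as lacking the mark, and covered length does not measure signal height.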
